A study of Rosa hybrid cultivar with 12 samples.

Results

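The response of rose buds to auxin at a low sucrose dose was measured by setting 3 libraries of buds given 10 mM sucrose with 1 µM NAA against 3 libraries given 10 mM sucrose without NAA. These 6 libraries were taken by their labels from the 12 of the series, and the other 6 had the same NAA contrast at 100 mM sucrose. NAA is a synthetic auxin, and all groups were wild-type buds of a hybrid rose cultivar that received sucrose. Each group held 1 library from each of 3 harvests, dated 20 June, 20 August and 20 October and numbered 1, 2 and 3, so libraries of the same number were paired by harvest date. The titles number 3 libraries a group, but the design text of the series counts only 2 biological replicates. If it is right, some of the libraries taken as n = 3 are not independent, and the SDs, SEs and adjusted p below may be too small. The labels give flower bud as the tissue while the title speaks of budburst, and the kind of bud is therefore left unnamed here. The files pair no gene ID with a gene name, so the tissue could not be checked against marker genes, and genes are given by ID only.

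Auxin is the hormone through which a growing shoot tip holds back the buds below it, an effect known as apical dominance. It is carried down the stem and acts on buds largely through other hormones, by lowering cytokinin and raising strigolactone signalling. Inside cells, auxin brings receptor proteins of the TIR1/AFB family together with Aux/IAA repressors, which are then degraded, and this frees auxin response factors to act on their target genes. Sucrose works the other way in bud outgrowth, both as a carbon source and as a signal. Budburst in rose is a common system for studying how these signals meet.

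At the low sucrose dose, NAA was accompanied by changes across much of the measured transcriptome, in both directions in similar number. Of 24267 tested genes, 3026 were higher (12.5%) and 3275 lower (13.5%) with NAA, which together is 26% of the genes tested. A gene was called when its Benjamini-Hochberg adjusted p in edgeR's quasi-likelihood test, with harvest date as a block so that libraries were compared within a date, was under 0.05. Levels are in CPM, a gene's counts set to the same total in every library, with library totals corrected by TMM, a factor that centres the bulk of genes between libraries. Most called changes were moderate. The median fold change was 1.82 among the genes that rose and 1.85 among those that fell. A change of at least 2-fold was seen in 1181 of the genes that rose and 1324 of those that fell, or 4.87% and 5.46% of the genes tested. Only 43 called genes rose and 32 fell by 3 or more on the log2 scale. In bulk RNA, fewer cells of a type and less RNA per cell cannot be told apart, so each change is one of the bud as a whole.

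The counts of calls rested on particular libraries. They were 1320 higher and 1769 lower without replicate 1 of the group without NAA, 1678 and 2005 without its replicate 2, and 1776 and 1697 without replicate 2 of the group with NAA. Without the June libraries of all groups they were 2116 and 2621. They were 789 and 684 without the August libraries, and 1613 and 1970 without the October libraries. Without the block they were 1636 and 1874, and from the 6 libraries alone 1884 and 2155.

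**Figure D1:**
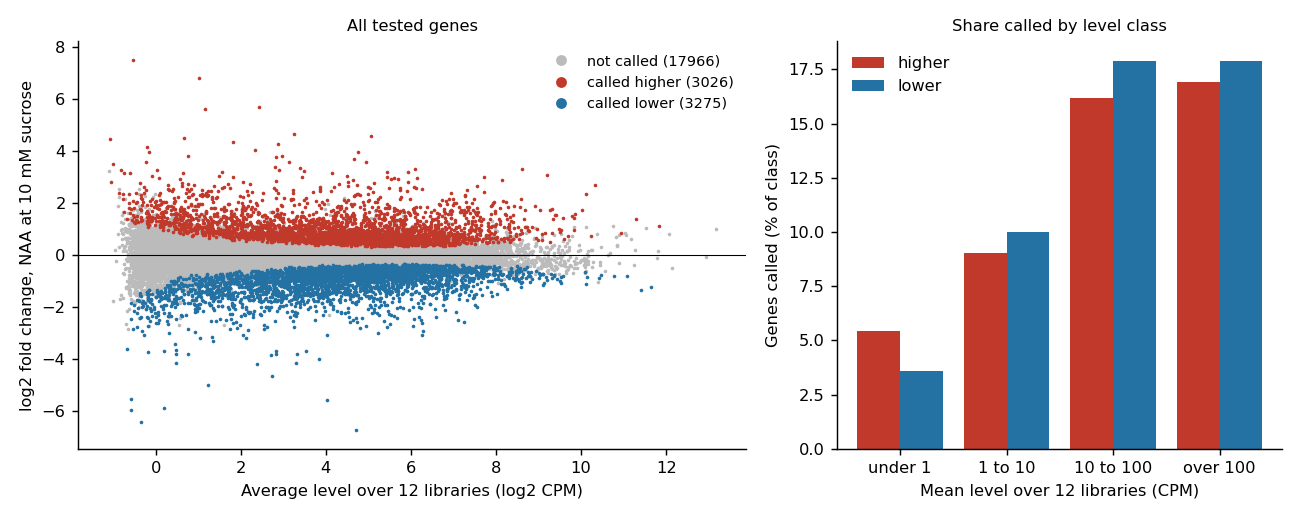
The left panel plots the edgeR log2 fold change with NAA at 10 mM sucrose against the average level over 12 libraries (log2 CPM) for 24267 genes, with 3026 called higher in red, 3275 called lower in blue and the rest in grey. The bars on the right give the percentage of genes called in each direction by class of mean CPM, which goes from 5.43% higher and 3.61% lower under 1 CPM to 16.9% and 17.9% over 100 CPM.

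One library stood apart before any comparison was made. Replicate 1 with NAA, from the June harvest, had 7369267 gene counts, and the other 5 libraries at 10 mM had between 9881297 and 16757019. Its 100 most counted genes took 24.9% of its gene counts, whereas those of the other 5 took 14.6% to 15.8%. It was scaled by a TMM factor of 0.745, against 0.984 to 1.04 for the other 5, so its CPM values are raised relative to plain shares of counts. Of its 100 most counted genes, 28 were called higher with NAA and 3 lower. Among all genes over 100 CPM on average, 16.9% were called higher and 17.9% lower. This library entered the test, so genes that stood high in it were more apt to be called higher. Of the same 100 genes, 51 were also among the 100 most counted in all 3 libraries without NAA. The most counted gene of this library held 2.20% of its gene counts. That gene held 0.950% and 1.00% in the other libraries with NAA and 0.667% to 0.762% in those without, a log2 change of 1.02 that did not pass the test (SE 0.414, edgeR adjusted p = 0.0922).

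**Figure D2:**
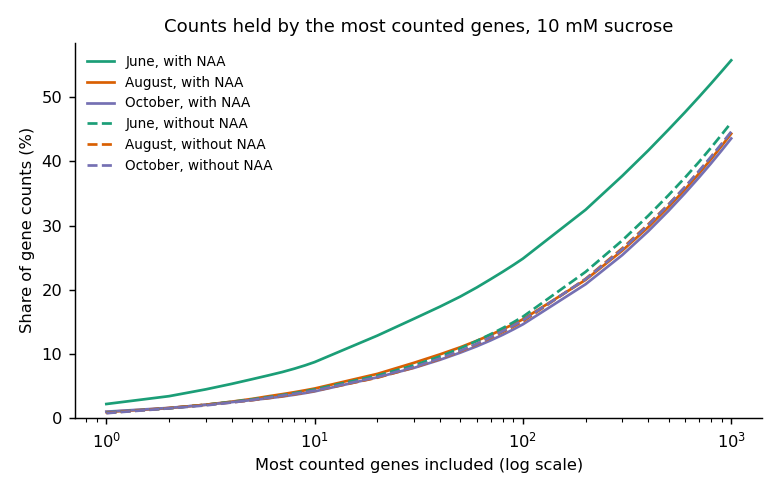
Cumulative share of gene counts (%) held by the most counted genes of each library, with the number of genes on a log axis. Solid lines are libraries with NAA and dashed lines those without, and the June library with NAA lies above the other 5, with 24.9% of its counts in 100 genes.

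Leaving this library out did not lower the number of calls. Without it, 3285 genes were higher and 3621 lower, and these held 2599 of the 3026 and 2782 of the 3275 called with it. Leaving out the June libraries of all groups did lower it, to 2116 higher and 2621 lower. The June pair also differed in planting date, which the labels give as 2 June with NAA and 2 May without it. Planting date and NAA therefore cannot be told apart in that pair. The August pair shared a planting date, 29 August, that falls after its harvest date, and the October pair shared 20 October.

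The 2 genes with the largest rise in level and the 2 with the largest fall, among called genes with the same sign in all 3 pairs, show how single genes behaved. CPM values allow a gene to be compared between libraries but not genes of different length with each other. The largest rise was that of gene:RC5G0381200. With NAA it stood at 9686, 5207 and 4718 CPM in June, August and October, and without NAA at 2668, 3382 and 2657 CPM. All 3 libraries with NAA lay above all 3 without it, and the June library with NAA was far above the rest. As a plain share of gene counts, this gene took 0.721%, 0.534% and 0.488% with NAA and 0.262%, 0.344% and 0.273% without, which again did not overlap. The mean went from 2902 ± 416 to 6537 ± 2738 CPM (SD, n = 3), a log2 fold change of 1.14 (SE 0.347, edgeR adjusted p = 0.0335). Its call was not firm. The edgeR adjusted p was 0.0599 without the June library with NAA, where the log2 fold change was 0.77. It was also above 0.05 when replicate 1, 2 or 3 without NAA at 10 mM was dropped (0.0707 to 0.165), without replicate 2 of 100 mM sucrose alone (0.0513), without any 1 harvest date (0.0873 to 0.115) and in the 6 libraries alone (0.0862).

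For gene:RC5G0605600, the levels with NAA were 2777, 5858 and 2115 CPM in June, August and October. Without NAA they were 577, 718 and 339 CPM in the same order. Here August was the highest month and October the lowest in both groups, and every library with NAA was above every library without it. The rise was 4.81-fold in June, 8.16-fold in August and 6.25-fold in October. From a mean of 544 ± 192 to 3584 ± 1998 CPM (SD, n = 3), it changed by 2.71 on the log2 scale (SE 0.427, edgeR adjusted p = 0.00199). It was called with any 1 of the 12 libraries or any 1 date left out, with edgeR log2 fold changes from 2.32 to 3.07.

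The largest fall in level was that of gene:RC3G0255800. It stood at 3906, 3182 and 4412 CPM without NAA in June, August and October, and at 2147, 916 and 2006 CPM with it. The groups did not overlap, and August was the lowest month in each. The mean went from 3834 ± 618 to 1690 ± 674 CPM (SD, n = 3), with a log2 fold change of -1.24 (SE 0.293, edgeR adjusted p = 0.0114). The call was lost without the August libraries (-0.99, edgeR adjusted p = 0.143) and without the October libraries (-1.28, edgeR adjusted p = 0.0659).

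A fall of like size was measured for gene:RC5G0649500. Its levels without NAA were 3216, 2719 and 3765 CPM, and with NAA 1271, 869 and 1820 CPM, in the same order of months. Again the groups were apart and August was the lowest month in each, while October was the highest. The mean went from 3233 ± 523 to 1320 ± 477 CPM (SD, n = 3), a log2 fold change of -1.33 (SE 0.286, edgeR adjusted p = 0.00743). Without the August libraries it was -1.18 and not called (edgeR adjusted p = 0.103).

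**Figure D3:**
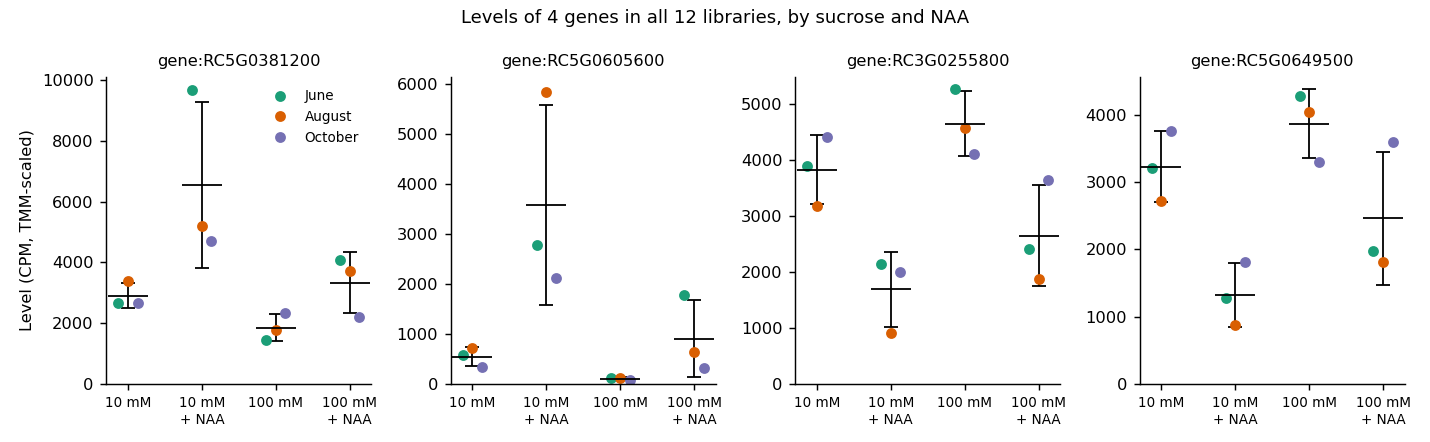
Levels (CPM, TMM-scaled) of the 4 genes in all 12 libraries, 1 panel a gene, with points coloured by harvest month and bars for the mean ± SD of 3 libraries. At 10 mM sucrose the libraries with and without NAA do not overlap for any of the 4 genes, for example 4718 to 9686 CPM against 2657 to 3382 CPM for gene:RC5G0381200.

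The genes ranked next in each direction were read in the same way. The 8 that followed by rise in level rose by 1.81-fold to 8.38-fold (edgeR adjusted p = 0.0032 to 0.0308), and the 8 that followed by fall went down by 1.56-fold to 2.13-fold (edgeR adjusted p = 0.0127 to 0.0394). In all of these, the groups at 10 mM did not overlap. Of the 8 that fell, 7 changed most in August and 1 in June. Of the 8 that rose, 4 changed most in June and 0 in August, unlike gene:RC5G0605600 above, which rose most in August.

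By summed level, the rise was carried by fewer genes than the fall. Over the 3026 genes that rose, mean levels went up by 138660 CPM in sum, and the 135 genes with the largest rises made up 50% of that. The 10 largest rises made up 14.7% and the 100 largest 44.5%. Over the 3275 genes that fell, the sum was 80413 CPM, of which 255 genes made up 50%, the 10 largest falls 11.7% and the 100 largest 33.6%. The sums include the raised CPM values of the June library with NAA. With CPM scaled by total gene counts alone, the sums were 116430 up and 89498 down, and 129 and 256 genes made up 50% of them. Without the June pair they were 119070 and 82474, with 148 and 232 genes. The rise was thus 1.72 times the fall on TMM-scaled CPM, 1.3 times on plain totals and 1.44 times without June. These sums describe the genes called and carry no test.

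Genes were called more often where their counts were higher. Under 1 CPM on average over the 12 libraries, 119 of 2191 genes rose and 79 fell, so that 9.04% were called. Between 1 and 10 CPM, 863 of 9574 rose and 959 fell (19% called). The share reached 34.1% between 10 and 100 CPM, where 1684 of 10369 rose and 1856 fell, and 34.7% over 100 CPM, where 360 of 2133 rose and 381 fell. The size of the change did not follow this order. Over all genes of a class, called or not, the median absolute log2 change was 0.51, 0.40, 0.34 and 0.39 from the lowest class to the highest. Most genes under 1 CPM were not called, and how far noise at low counts sets their median was not tested.

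Few genes went between near silence and clear expression. With near silence set at no more than 3 counts over the 3 libraries of a group, and at least 30 counts in the other group, 6 genes appeared with NAA and 7 disappeared. The 6 had 37 to 118 counts with NAA, but only 2 had at least 5 counts in each library with NAA. Those that disappeared had 32 to 52 counts without NAA, and 4 of the 7 had at least 5 in each library. Only 2 of the 6 passed the filter on low counts, against 7 of the 7, and all that passed were called. Because the filter lets such a gene through on the group where it is high, the calls say nothing beyond the counts.

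The per-library values of most called genes were fully separated between the groups. All 3 libraries with NAA lay above all 3 without it for 4122 of the tested genes (17%), and below them for 4384 (18.1%). Among called genes this held for 2576 of the 3026 that rose and 2839 of the 3275 that fell. The remaining 450 and 436 overlapped between groups. The calls were made on these same libraries, so the separation of called genes follows largely from how they were chosen. The split depends on how library totals were scaled, and which library sets this was not tested. With CPM scaled by total gene counts alone, 2407 genes were separated upward and 4785 downward.

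Each harvest date gave its own measure of the NAA change. The log2 CPM change with NAA correlated across the 24267 genes at r = 0.526 between June and August (Spearman's rho 0.497), 0.545 between June and October (rho 0.516) and 0.692 between August and October (rho 0.675). No library enters 2 dates, but genes are not independent replicates and the dates share the counting and the scaling. The change had the same sign in all 3 pairs for 13698 genes (56.4%), of which 6886 were higher and 6812 lower. Among called genes this was so for 3004 of the 3026 and 3259 of the 3275. The calls were made on these same pairs, so this follows largely from the choice and is no separate sign that the dates agreed. With 3 pairs, an exact two-sided permutation test of a single value cannot go below p = 0.25, so no such test was run on single pairs.

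The spread of changes over all genes was widest in June and narrowest in October. The SD over genes was 0.95 on the log2 scale in June, 0.80 in August and 0.64 in October. The genes called as risers had a median change of 0.89 in June, 0.87 in August and 0.73 in October, and those called as fallers had -0.88, -1.03 and -0.70. Of the genes that rose, 42.2% changed most in June, 40% in August and 17.8% in October. Among those that fell, August was the month of the largest change for 51.2%, June for 39.1% and October for 9.62%. Each month had 1 library per group, so month and library cannot be told apart here.

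Genes picked without a month moved the same way in that month. For each month, the 500 genes with the smallest p in each direction were chosen from a fit on the other dates, and then measured in the month left out. In June, 491 of 499 genes chosen as higher had a positive change, with a median of 1.25 on the log2 scale, and 467 of 500 chosen as lower had a negative one, with a median of -1.24. For August the numbers were 486 of 499 with a median of 1.27, and 499 of 500 with a median of -1.61. The October pair gave 489 of 494 with a median of 1.00 and 498 of 500 with a median of -1.05. The median over all genes was between -0.01 and 0.03 in these months. June had the largest number of genes against the chosen direction, 33 of the 500 chosen as lower. Each month left out was 1 pair of libraries, so these counts run over genes and not over replicates. The June pair also differed in planting date.

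**Figure D4:**
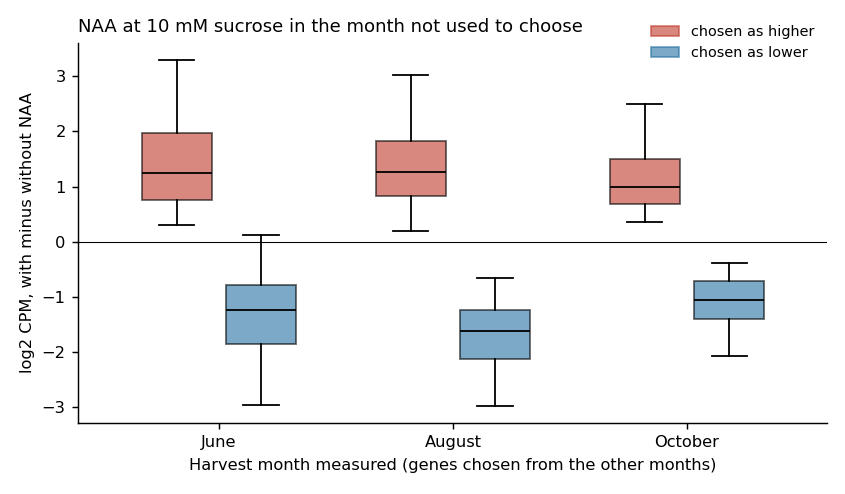
Change in log2 CPM with NAA at 10 mM sucrose in each harvest month, for up to 500 genes per direction chosen from the other months. Boxes give the middle 50% of genes with the median as a line and whiskers from the 5th to the 95th percentile, and the medians lie between 1.00 and 1.27 for genes chosen as higher and between -1.61 and -1.05 for those chosen as lower.

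Libraries with NAA varied more among themselves than those without. The median SD of log2 CPM over 3 libraries was 0.344 with NAA and 0.217 without, and 17153 of the 24267 genes (70.7%) had the larger SD with NAA. Without the June libraries the order was the same, as the median absolute difference between the August and October libraries was 0.333 with NAA and 0.249 without. The pairs that included the June library differed by a median of 0.457 and 0.412 with NAA, and by 0.213 and 0.284 without. At 100 mM sucrose, the median SD was 0.263 with NAA and 0.217 without.

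The same genes were then read at 100 mM sucrose, where no library is shared with the 10 mM comparison. The June pair at 100 mM also differs in planting date in the labels, 2 August with NAA and 2 July without, so planting date and NAA cannot be told apart there either, and both dates fall after the harvest. Of the 3026 genes that NAA raised at 10 mM, 2928 (96.8%) had a positive change at 100 mM, with a median of 0.56 on the log2 scale. Of the 3275 it lowered, 3180 (97.1%) had a negative change, with a median of -0.47. The same-sign share over all tested genes is not given here, so how far these shares exceed it cannot be read. The medians at 10 mM were 0.86 and -0.89, but the genes were chosen on those values, so the medians of the doses are not on equal terms. Read the other way, 1136 genes called higher at 100 mM (4.68% of the genes tested) had a median of 0.98 there and 0.92 at 10 mM. The 813 called lower at 100 mM (3.35%, and 8.03% in either direction) had a median of -0.95 there and -1.19 at 10 mM. Both of these lists were chosen on their 100 mM values, so their medians are not on equal terms either. Calls in the same direction at both doses were made for 954 genes that rose, which is 31.5% of the 10 mM list and 84% of the 100 mM list, and for 667 that fell, 20.4% and 82% of the lists. Only 1 gene was called in opposite directions, lower at 10 mM and higher at 100 mM. The 100 mM lists were unstable, with 261 to 1901 genes higher and 90 to 1789 lower when any 1 of the 12 libraries was left out, and 205 and 70 without the block.

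**Figure D5:**
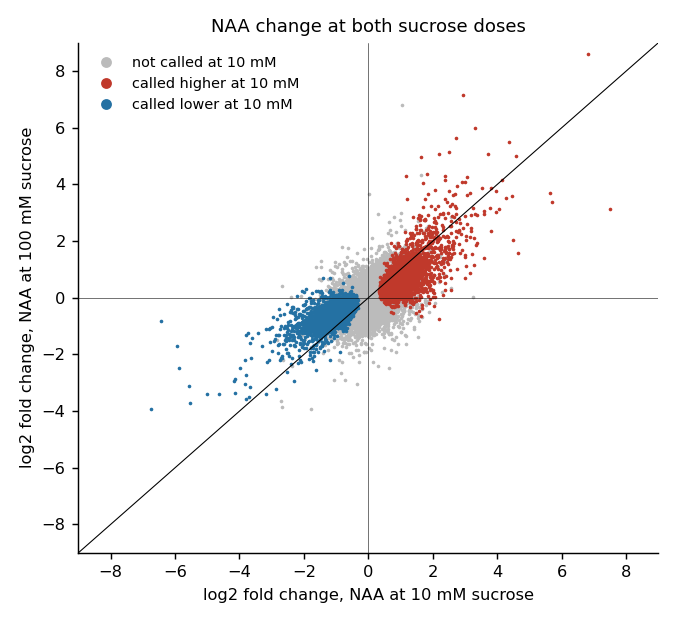
The edgeR log2 fold change with NAA at 100 mM sucrose against that at 10 mM sucrose for 24267 genes, with genes called at 10 mM in red (higher) and blue (lower) and a diagonal line for equal changes. Of the red genes 96.8% lie above zero on the vertical axis, and 97.1% of the blue genes lie below it. The same-sign share over all 24267 genes is not given, so how far these shares exceed it cannot be read.

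Whether the NAA change differed between doses was tested for every gene, and edgeR called 0 genes (0% of those tested). Without adjustment, 1683 genes (6.94%) had a p under 0.05, and the smallest adjusted p was 0.717. DESeq2 with the same block called 2 genes with a more positive change at 10 mM and 4 with a more negative one. A miss of the threshold does not show that the changes were alike at both doses.

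The share of counts held by these genes can be followed library by library. The 3026 genes called higher took 22.8%, 29.8% and 20.4% of the tested counts with NAA at 10 mM in June, August and October, and 12.6%, 14.4% and 11.1% without it. That separation follows from how the genes were chosen. The 100 mM libraries entered the choice through the filter on low counts, the scaling and the shared estimates of spread and date. In them, the same genes took 18.3%, 16.0% and 11.7% with NAA and 9.08%, 9.16% and 8.24% without. The groups did not overlap at 100 mM either, and the October library with NAA was the nearest to those without. The 3275 genes called lower took 8.20%, 8.75% and 13.1% with NAA at 10 mM, and 18.3%, 17.7% and 20.9% without. At 100 mM they took 13.9%, 15.7% and 19.9% with NAA and 21.4%, 22.1% and 21.0% without, again without overlap and with October nearest.

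Of the 4 genes described singly, gene:RC5G0605600 also rose at 100 mM sucrose. It stood at 1773, 631 and 309 CPM with NAA in June, August and October and at 124, 112 and 70.4 CPM without, a log2 fold change of 2.96 (SE 0.439, edgeR adjusted p = 0.00448). June was the highest month with NAA at this dose, and the groups did not overlap. For gene:RC5G0381200 the levels at 100 mM were 4092, 3709 and 2200 CPM with NAA and 1430, 1783 and 2315 CPM without, so the October library with NAA lay below the one without it (log2 fold change 0.80, SE 0.346, edgeR adjusted p = 0.18). Levels of gene:RC3G0255800 at 100 mM were 2417, 1881 and 3648 CPM with NAA and 5270, 4570 and 4114 CPM without (-0.88, SE 0.291, edgeR adjusted p = 0.0886). Those of gene:RC5G0649500 were 1978, 1809 and 3596 CPM with NAA and 4281, 4047 and 3298 CPM without, with October again reversed (-0.75, SE 0.285, edgeR adjusted p = 0.129). Their interactions were 0.34 for gene:RC5G0381200, -0.25 for gene:RC5G0605600, -0.36 for gene:RC3G0255800 and -0.59 for gene:RC5G0649500, with edgeR adjusted p from 0.747 to 0.93.

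The sucrose comparisons share a group each with the NAA comparison at 10 mM, so their values are only set beside it. With 100 against 10 mM sucrose and no NAA, gene:RC5G0605600 changed by -2.39 on the log2 scale (SE 0.424, edgeR adjusted p = 0.00864), and with NAA by -2.14 (SE 0.431, edgeR adjusted p = 0.00938). The other rising gene, gene:RC5G0381200, had values of -0.63 and -0.97 (edgeR adjusted p = 0.383 and 0.0833). For the falling genes the values were positive without passing the test. They were 0.31 without NAA and 0.68 with it for gene:RC3G0255800 (edgeR adjusted p = 0.635 and 0.143), and 0.31 and 0.90 for gene:RC5G0649500 (edgeR adjusted p = 0.629 and 0.0557).

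A called gene was often followed, in ID number, by a gene called in the same direction. The IDs run in steps of 100 within 8 prefixes, and 14970 tested genes were followed by a tested gene with the next number. After a gene that rose, the next had also risen in 20.1% of cases (383 of 1906), whereas over all such pairs the second gene rose in 12.6%. After a gene that fell, the next had fallen in 21.1% (441 of 2086), against 14% over all pairs. The opposite direction was not more frequent, at 13.2% falling after a rise and 11% rising after a fall. Runs of 3 or more neighbours moving the same way held 122 genes that rose, in 38 runs of up to 4 genes, and 181 that fell, in 55 runs of up to 5. The files do not say whether neighbouring IDs lie side by side in the genome. By prefix, the share of genes called ran from 23.2% to 28.4%.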

How the data were processed

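Stranded paired-end libraries were made from polyA-selected RNA, per the labels' protocols. The authors deposited raw counts per gene, whole numbers with no normalisation, in 3 columns per library (strand ignored, forward and reverse). TopHat2 and Bowtie2 are named in the submitters' processing notes. No genome build, annotation or setting is given in the sources used here. Analyses took the reverse column. The 4 summary rows (unmapped, multimapping, unassigned and ambiguous reads) were left out, at 17.3% to 23.2% of all reads in each library. Multimapping reads, 3.15% to 5.44%, can hide genes with near-identical copies.

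Of 42307 gene IDs, 24267 passed filterByExpr (minimum count 10, minimum total count 15) and held 99.8% of the counts. Gene counts per library ran from 7369267 to 16757019. Counts were fitted with edgeR 4.0.16 in R 4.3.3 by a quasi-likelihood model over all 12 libraries, with TMM scaling, 1 mean per group and the harvest date as a block. CPM values use TMM-scaled library sizes, and log2 CPM a prior count of 2. The SE of a log2 fold change is its size divided by the square root of the F statistic. DESeq2 1.42.0 was an alternative. The test was run on simulated counts with known changes at 10 mM sucrose. It recovered 1.99% of genes changed 1.5-fold, 36.3% of those changed 2-fold and 88.9% of those changed 4-fold. A mean of 7 unchanged genes were called per run. Each run changed only 200 genes, far fewer than were called here. The simulated libraries had no differences between dates and the same spread of a gene in every group. These shares and the mean of 7 therefore do not carry over directly.

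Same-number libraries share a harvest date in the labels, which is where the pairing comes from. Deviations from group means correlated at 0.268, 0.368 and 0.449 in the June, August and October pairs at 10 mM. The labels do not say that libraries came from separate plants, so p-values measure the spread between these libraries, which may be technical. The test took 1 spread per gene over all 12 libraries. The median SD of log2 CPM was 0.344 with NAA at 10 mM and 0.217 to 0.263 in the other groups. Libraries of a group differed by far more than counting noise (chi-square per degree of freedom 8.91 to 96.5). The genes given by ID were the 2 with the largest rise and the 2 with the largest fall of mean CPM at 10 mM, among called genes with the same sign on all 3 dates. The comparison and these rules were chosen with earlier results of these data known. Alternatives were another scaling, no filter on low counts, DESeq2, no block, the 6 libraries of a comparison alone, strand ignored, and each library or date left out. The other scalings of the summed rise and fall, and the prior count of 0.5 for the same-sign count, were chosen after seeing the data.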

Additional observations from a re-analysis of the deposited data

Results flagged for a closer look

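Reads on the forward strand, which the comparisons did not use, took a larger share with NAA at 10 mM sucrose than without it. Of forward and reverse gene counts together, the forward strand held 5.00%, 3.95% and 4.0% with NAA in June, August and October, with a mean of 4.32% ± 0.595 (SD, n = 3). Without NAA it held 3.56%, 3.76% and 3.53%, with a mean of 3.62% ± 0.127 (SD, n = 3). Every library with NAA was above every library without it, also when the June library that stands apart is set aside. At 100 mM sucrose the means were 3.97% ± 0.266 with NAA and 3.51% ± 0.212 without (SD, n = 3).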

How the results depend on the processing

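Every alternative run kept the direction of the 4 genes given by ID. No gene called at 10 mM was called in the opposite direction under any alternative. The counts of genes called at 10 mM, 3026 higher and 3275 lower, stayed within 1.5 times under DESeq2 size factors, upper-quartile scaling, no filter on low counts, DESeq2 and strand ignored (2811 to 3257 higher, 3036 to 3331 lower). Without the replicate block they were 1636 and 1874, all among those called with it, and at 100 mM sucrose 205 and 70. From the 6 libraries of each comparison alone, 1884 and 2155 genes were called at 10 mM and 1430 were lower at 100 mM. DESeq2 called 1220 genes lower at 100 mM, and for the interaction 2 higher and 4 lower. With a library or a date left out, the counts at 10 mM ran from 789 to 3314 higher and from 684 to 3640 lower. Those at 100 mM, 1136 and 813, ran from 167 to 1901 and from 42 to 1789, and those of the interaction stayed at 0. At 100 mM the count moved by more than 1.5 times without replicate 1 (331 higher, 94 lower), 2 (694, 170) or 3 (425 lower) of 100 mM with NAA, 1 (391, 199) or 2 (261, 90) of 100 mM alone, 1 (1901, 1789) or 2 (1305 lower) of 10 mM with NAA, or 2 (476 lower) of 10 mM alone, and without any date. CPM scaled by total gene counts separated the groups upward for 2407 genes instead of 4122. The same-sign count of 13698 genes and the changes per month of the 4 genes moved little with a prior count of 0.5. The cause of these differences was not tested. Of genes under 1 CPM, 9.04% were called at 10 mM, against 34.7% over 100 CPM, and how far depth sets this was not tested.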
